A study of Mus musculus with 9 samples.

Results

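The vascular marker genes comprised 35 genes that label the cells of brain blood vessels, chosen by name: 23 endothelial, 8 pericyte and 4 smooth muscle genes of the 43629 genes counted. The study sequenced ribosome-depleted total RNA from the frontal cortex of female C57BL/6 mice aged 2 to 4 months. The 5 wild type (WT) mice were 2, 2, 3, 4 and 4 months old. The 4 Neat1-/- mice were 3, 3, 4 and 2 months old and carry an insertion of lacZ with polyadenylation signals just behind the Neat1 start site, so that the allele acts in every cell of the body, not in the vessels alone. Each library is 1 mouse, and libraries are named here by genotype and replicate number.

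Brain capillaries are tubes of endothelial cells sealed by tight junctions, which together with dedicated transporters form the blood-brain barrier. Pericytes share a basement membrane with the capillary endothelium and stabilise it through PDGF signalling, and smooth muscle cells ring the arterioles and set their width. Both wall cell types are called mural cells. In bulk tissue these cells are a small share of the RNA, and a lower marker level from fewer vascular cells cannot be told apart from one from less RNA per cell.

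All 35 genes were detected in each mouse and passed the filter on low counts. The libraries held 51276067 to 64648856 counts. Neat1 itself was at 60.8 to 120 CPM in WT, where CPM is counts scaled to a library of 1000000 after TMM normalization, and at 7.11 to 9.72 CPM in Neat1-/- mice, a 10.02-fold lower level (log2 fold change -3.33, SE 0.189, edgeR adjusted p = 1.27e-06). A pair of libraries stood apart in ways that touch the vascular genes. In WT replicate 4 the 20 meningeal fibroblast markers had a median log2 CPM 1.13 below their mean over the 9 mice, against -0.003 to 0.29 in the other 8 mice, and their summed level was 45.3 CPM per kb against 80.4 to 108. WT replicate 3 had a summed choroid plexus and ependymal level of 95.3 CPM per kb against 12.8 to 22.4 in the others. The main counts of vascular genes and the vascular results that these mice move most are therefore given also without them.

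No vascular marker gene passed the adjusted threshold of 0.05 between genotypes in edgeR's quasi-likelihood test, and the smallest adjusted p was 0.416. The same count was 0 with DESeq2 and with limma. Over all 19753 genes tested, 0.0709% passed. At an unadjusted p under 0.05, 5 of the 35 genes were higher in Neat1-/- mice (14.3%), against 4.27% of all genes, and 0 were lower, against 4.03%. In either direction this was 8.3% of all genes. The 35 genes were chosen with earlier results of these data known, so these shares are a description and not an independent test. These 5 were Sox18, Sox17, Egfl7, Itm2a and Slco1a4, all endothelial. Without WT replicate 4, 4 of the 35 genes were higher and 3 lower at that threshold, where 2.4% and 3.1% of all genes were. Without WT replicates 3 and 4 there were 3 higher (Sox18, Sox17 and Itm2a) and 2 lower (Vwf and Vtn), where all genes gave 3.81% and 3.48%. The log2 fold changes of the 35 genes ran from -0.35 for Cnn1 to 0.53 for Sox18 with a median of 0.01, against -0.000231 for all genes. Of the 35, 20 were positive and 15 negative. None of the 35 separated the genotypes without overlap, where 2.67% of all genes did.

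**Figure D1:**
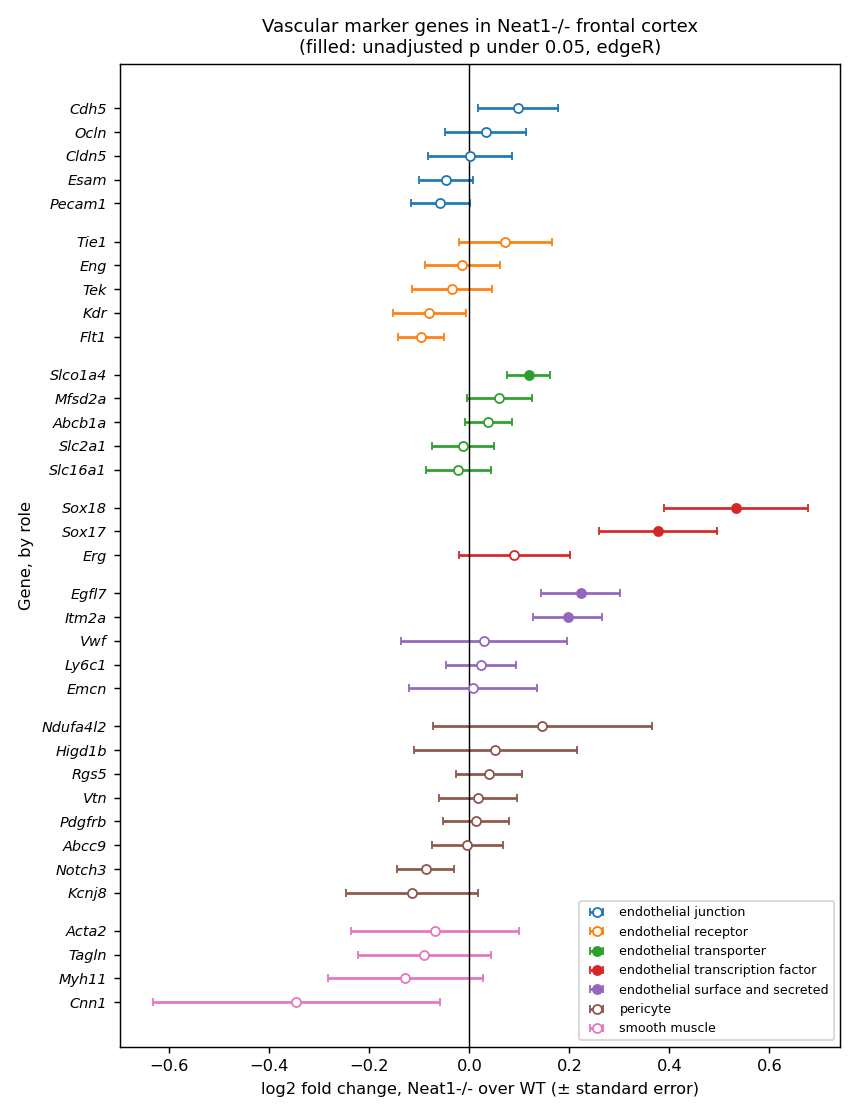
Each point is the fitted log2 fold change of 1 gene, Neat1-/- over WT, with its standard error (horizontal axis), arranged and coloured by role (vertical axis). Filled points mark the 5 endothelial genes with an unadjusted p under 0.05, and the other 30 open points lie between -0.35 and 0.15.

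The endothelial transcription factors held the largest positive values. Sox17 and Sox18 are SOXF-family factors that direct arterial and lymphatic fate in endothelial cells, and Erg is an ETS factor that keeps junction genes on. Sox18 (chr2:181669836-181671640, minus strand, GRCm38) was at 3.05, 2.44, 2.37, 2.65 and 3.38 CPM in WT replicates 1 to 5. In Neat1-/- replicates 1, 3, 4 and 5 it was at 3.78, 4.93, 4.12 and 3.30 CPM. Of the 4 Neat1-/- mice, 3 lay above all WT mice, and the youngest, replicate 5, lay just under the highest WT mouse. The means were 2.78 ± 0.429 (SD, n = 5) and 4.04 ± 0.684 CPM (SD, n = 4), and the fitted difference was 44.7% (log2 fold change 0.53, SE 0.144, edgeR adjusted p = 0.416). An exact two-sided permutation test of the CPM over the 126 splits of the mice gave p = 0.0238, where the smallest possible is 0.00794.

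Sox17 (chr1:4490931-4497354, minus strand) had the same arrangement of mice. It was at 5.62, 5.31, 4.65, 4.77 and 5.45 CPM in WT, and at 7.30, 7.85, 6.34 and 5.31 CPM in Neat1-/- mice. Again Neat1-/- replicate 5 was the one that fell inside the WT range. The log2 fold change was 0.38 (SE 0.118, edgeR adjusted p = 0.518) and the exact permutation p was 0.0238. Sox17 shares 804 exon bases, 16.8% of its exon length, with Gm37587 on the opposite strand, a gene at 0.0613 CPM.

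Erg, in contrast, was at 4.27 to 5.71 CPM in WT and 4.66 to 5.90 CPM in Neat1-/- mice. These ranges largely coincided (log2 fold change 0.09, SE 0.111). Sox7, the third SOXF gene, was not among the 35 and was looked up after the values of Sox17 and Sox18 had been seen. It was at 0.555, 0.756, 0.497, 0.481 and 0.591 CPM in WT and at 0.560, 1.05, 0.815 and 0.707 CPM in Neat1-/- mice. With 26 to 60 counts per library its log2 fold change was 0.44 (SE 0.251, edgeR adjusted p = 0.65), which did not exceed the spread between mice.

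Surface and secreted endothelial proteins held a further pair of the 5 genes. Egfl7, a secreted protein that guides the assembly of endothelial tubes and hosts the endothelial microRNA miR-126 in an intron, lies at chr2:26580014-26593120. It was at 27.8, 26.7, 23.4, 23.0 and 30.3 CPM in WT and at 29.9, 33.7, 30.0 and 29.0 CPM in Neat1-/- mice. The lowest Neat1-/- mouse lay above 4 of the 5 WT mice. The log2 fold change was 0.22 (SE 0.0791, edgeR adjusted p = 0.544, exact permutation p = 0.0556). Itm2a (chrX:107397099-107403376, minus strand), a membrane protein abundant in brain endothelium, was at 34.4, 35.7, 33.5, 27.6 and 36.1 CPM in WT. In Neat1-/- mice it was at 39.7, 39.2, 38.8 and 35.6 CPM, with replicate 5 again the lowest of the 4 and inside the WT range. Its log2 fold change was 0.20 (SE 0.0689, edgeR adjusted p = 0.543, exact permutation p = 0.0476).

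The remaining genes of that group sat near 0. Ly6c1, a GPI-anchored surface protein of mouse endothelium, was at 15.5 to 21.1 CPM in WT and 17.8 to 19.8 CPM in Neat1-/- mice (log2 difference 0.02, SE 0.0698). Its near-identical copy Ly6c2 makes its counts uncertain. Emcn, an endothelial sialomucin, was at 0.01 on the log2 scale. Vwf, the clotting factor of larger vessels, was at 0.03, with a wide spread: WT replicate 4 was at 19.5 CPM and the other WT mice at 31.7 to 38.9 CPM. Without WT replicates 3 and 4 the Vwf difference was -0.20 (SE 0.0784, edgeR adjusted p = 0.635).

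**Figure D2:**
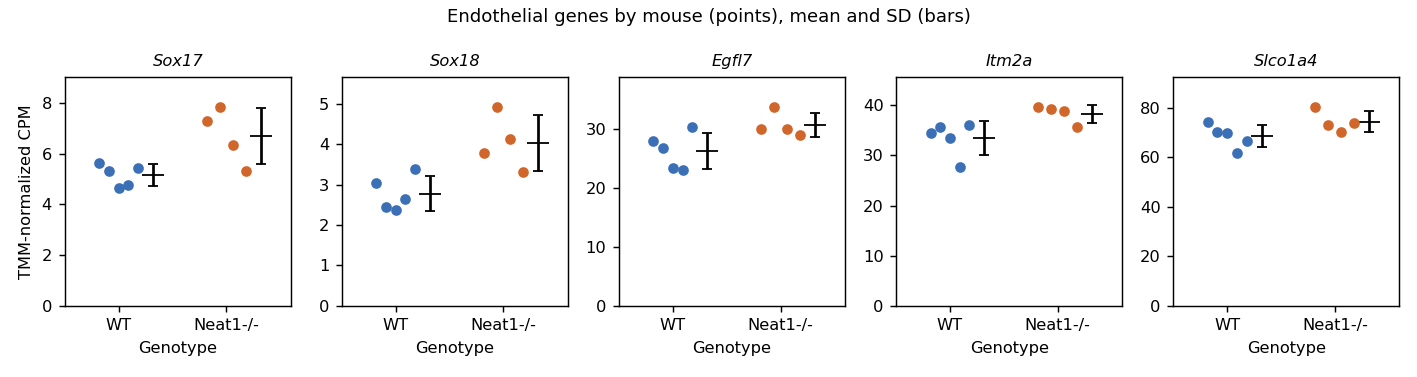
TMM-normalized CPM (vertical axes from 0) of Sox17, Sox18, Egfl7, Itm2a and Slco1a4 in each of the 5 WT and 4 Neat1-/- mice (points), with the mean and SD as a bar. The Neat1-/- means lie above the WT means in all 5 panels, and the points of the genotypes overlap in each, for Sox18 with 1 Neat1-/- mouse at 3.30 CPM under 1 WT mouse at 3.38 CPM.

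Transporters of the barrier were measured at high levels. Slco1a4, an organic anion transporter, lies at chr6:141805440-141856199 on the minus strand. It was at 74.0, 70.2, 70.0, 61.8 and 66.6 CPM in WT and at 80.3, 72.9, 70.3 and 73.8 CPM in Neat1-/- mice. The ranges overlapped from 70.3 to 74.0 CPM. The log2 fold change was 0.12 (SE 0.043, edgeR adjusted p = 0.555, exact permutation p = 0.0873). It belongs to a family of similar genes, between which reads may be split. Slc2a1, the glucose transporter GLUT1, was at 64.3, 71.9, 55.7, 54.0 and 60.0 CPM in WT and at 55.9, 56.8, 59.2 and 70.6 CPM in Neat1-/- mice. Its highest mouse of each genotype was 2 months old, and the log2 fold change was -0.01 (SE 0.0617). The drug efflux pump Abcb1a was at 0.04, the lactate and pyruvate carrier Slc16a1 at -0.02 and the lipid transporter Mfsd2a at 0.06 on the log2 scale, with no unadjusted p under 0.05. Abcb1a has a close copy, Abcb1b.

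WT replicate 4 was the lowest of the 9 mice for 20 of the 35 genes, where it was the lowest for 14.8% of all genes, and the highest for 0. Without it, Sox18 was at 0.48 (SE 0.152, edgeR adjusted p = 0.826), Sox17 at 0.33 (SE 0.125, adjusted p = 0.893) and Egfl7 at 0.16 (SE 0.0732, adjusted p = 0.901). Itm2a was then at 0.12 (SE 0.0459, adjusted p = 0.893) and Slco1a4 at 0.09 (SE 0.0435, adjusted p = 0.908), and the unadjusted p of Slco1a4 was 0.0647, no longer under 0.05. Without WT replicates 3 and 4, Egfl7 was at 0.10 (SE 0.0571, adjusted p = 0.762) with an unadjusted p of 0.114, and Slco1a4 at 0.09 (SE 0.0448, adjusted p = 0.693) with an unadjusted p of 0.0543, so neither kept its unadjusted call. Itm2a was then at 0.10 (SE 0.0448, adjusted p = 0.671), Sox17 at 0.28 (SE 0.125, adjusted p = 0.671) and Sox18 at 0.40 (SE 0.141, adjusted p = 0.573). The median over the 23 endothelial genes was 0.03 with all mice and -0.03 without WT replicate 4. Other summed levels were lowest of the 9 mice in WT replicate 4 too. Astrocyte markers were at 648 CPM per kb against 696 to 752, and microglia and macrophage markers at 110 against 114 to 132. The neuronal and oligodendrocyte sums of WT replicate 4 lay inside the range of the other mice. Whether the low meningeal content of that sample, or its low level of these other markers, has a part in these differences was not tested. In all 20 alternative settings Sox17 and Sox18 kept a positive difference with an unadjusted p under 0.05, and Itm2a and Egfl7 did in 18 and Slco1a4 in 16.

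Promoter sequence is shown for the 3 of these 5 genes with an entry in the RefSeq table, since the higher genes included factors of the SOX family and Erg is of the ETS family. Capitals mark the ETS word CAGGAA and the SOX word ACAAT on either strand in the 250 bases before the start (RefSeq, GRCm38.p6). Egfl7 has 3 windows in the table that differ: the one at chr2:26580833-26581082 held 2 ETS words, the one shown 1 and the one at chr2:26586386-26586635 none. The Egfl7 window is chr2:26583615-26583864 on the plus strand, that of Itm2a is chrX:107403361-107403610 and that of Slco1a4 is chr6:141856221-141856470, both on the minus strand.
Egfl7: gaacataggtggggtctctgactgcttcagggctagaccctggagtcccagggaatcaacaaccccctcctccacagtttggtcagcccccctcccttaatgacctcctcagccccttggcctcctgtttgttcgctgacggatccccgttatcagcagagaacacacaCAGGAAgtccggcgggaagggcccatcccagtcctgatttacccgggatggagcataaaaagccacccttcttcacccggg
Itm2a: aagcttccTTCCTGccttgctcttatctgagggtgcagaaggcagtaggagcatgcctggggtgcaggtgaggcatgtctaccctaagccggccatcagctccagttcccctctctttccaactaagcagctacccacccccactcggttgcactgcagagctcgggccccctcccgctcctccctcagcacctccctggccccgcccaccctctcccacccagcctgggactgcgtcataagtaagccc
Slco1a4: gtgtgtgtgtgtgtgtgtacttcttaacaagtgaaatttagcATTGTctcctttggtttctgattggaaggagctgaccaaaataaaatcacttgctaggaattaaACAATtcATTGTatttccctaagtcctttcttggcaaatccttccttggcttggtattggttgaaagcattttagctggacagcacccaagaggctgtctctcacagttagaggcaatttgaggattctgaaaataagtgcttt
The Egfl7 window shown and the Itm2a window each held 1 ETS word and no SOX word, and the Slco1a4 window held 3 SOX words and no ETS word. Such words are common. Of all 32851 promoter windows of this length, 25.7% held the ETS word and 27.7% the SOX word. Among the 30 windows found for 24 of the 35 genes, 9 held the ETS word and 7 the SOX word. A match describes the letters only.

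Junction proteins did not differ between genotypes beyond the spread between mice. Cldn5, the claudin that seals brain endothelial tight junctions, was at 23.2, 23.8, 25.9, 21.4 and 25.4 CPM in WT and at 24.6, 28.1, 22.5 and 20.6 CPM in Neat1-/- mice. The Neat1-/- mice spanned a wider range than the WT mice on both sides, and the log2 fold change was 0.00 (SE 0.0843). Esam, an adhesion molecule at endothelial junctions, was at 15.6 to 17.6 CPM in WT and 15.4 to 16.6 CPM in Neat1-/- mice (log2 difference -0.05, SE 0.0542). Its coefficient of variation over the 9 mice, 4.35%, was the smallest among the 35 genes. The tight junction protein Ocln was at 0.03, the cadherin Cdh5 at 0.10 and the adhesion molecule Pecam1 at -0.06 on the log2 scale.

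Receptors gave 4 negative values and 1 positive value. Flt1, the VEGF receptor that also acts as a decoy, was at 74.7, 87.6, 82.0, 82.2 and 82.4 CPM in WT and at 77.1, 74.2, 82.3 and 72.7 CPM in Neat1-/- mice. The 4 highest values for Flt1 included 1 Neat1-/- mouse, and the 3 other Neat1-/- mice lay below 4 of the 5 WT mice. The log2 fold change was -0.10 (SE 0.0458, edgeR adjusted p = 0.608, exact permutation p = 0.103). In 9 of the 20 alternatives its unadjusted p was under 0.05. Tek, the angiopoietin receptor, was at 19.3 to 27.6 CPM in WT and 22.9 to 24.4 CPM in Neat1-/- mice (log2 difference -0.03, SE 0.0801), and at -0.12 (SE 0.0547, edgeR adjusted p = 0.907) without WT replicate 4. Kdr, the main signalling VEGF receptor, was at -0.08, Tie1, the partner of Tek, at 0.07 and Eng, a TGF-beta co-receptor, at -0.01.

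Pericyte genes had a median log2 fold change of 0.02, with values from -0.12 to 0.15. An unadjusted p under 0.05 was found for 0 of 8, against 8.3% of all genes. Rgs5, a regulator of G protein signalling, was at 116, 158, 129, 126 and 130 CPM in WT and at 135, 133, 132 and 140 CPM in Neat1-/- mice. The Neat1-/- mice were closely grouped inside a WT range set by replicates 1 and 2 (log2 fold change 0.04, SE 0.066). Vtn, the secreted adhesion protein vitronectin, was at 63.1, 64.4, 57.2, 49.9 and 69.0 CPM in WT and at 61.0, 66.5, 60.9 and 57.3 CPM in Neat1-/- mice (log2 difference 0.02, SE 0.078). Without WT replicates 3 and 4 it was at -0.11 (SE 0.0446, edgeR adjusted p = 0.633). Per kilobase of exon, Vtn at 30.1 and Rgs5 at 29.3 CPM per kb had the highest mean levels of the 35 genes, ahead of Itm2a at 20.4, Slc2a1 at 17.4 and Cldn5 at 16.9 CPM per kb. The other extreme was Cnn1 at 0.247 CPM per kb.

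The remaining pericyte genes are given by their log2 fold changes. Pdgfrb, the PDGF receptor that recruits pericytes, was at 0.01. Kcnj8 and Abcc9, which together form an ATP-sensitive potassium channel, were at -0.12 and -0.00. Higd1b was at 0.05 and Ndufa4l2 at 0.15, both from low counts of 40 to 184 per library. Notch3, the receptor of arterial mural cells, was at -0.09 (SE 0.0569, edgeR adjusted p = 0.675).

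As a group, the smooth muscle genes were the most variable of the vascular markers. Acta2 and Myh11 are the actin and myosin heavy chain of the contractile apparatus, and Tagln and Cnn1 bind actin. Acta2 (chr19:34241090-34255590, minus strand) was at 14.6, 21.0, 15.4, 9.67 and 17.7 CPM in WT and at 11.6, 16.5, 16.3 and 14.98 CPM in Neat1-/- mice. Tagln was at 7.18, 10.1, 8.55, 5.25 and 7.79 CPM in WT and at 6.76, 7.13, 7.48 and 7.64 CPM in Neat1-/- mice. For both genes WT replicate 2 was the highest and WT replicate 4 the lowest of the 9 mice, so the WT range enclosed that of the Neat1-/- mice. Myh11 was at 13.9 to 28.2 CPM in WT and 15.04 to 21.9 CPM in Neat1-/- mice. Cnn1 was at 0.338 to 0.938 CPM in WT and 0.467 to 0.752 CPM in Neat1-/- mice, from only 19 to 57 counts per library.

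All 4 log2 fold changes were negative, and none passed a threshold: -0.07 for Acta2 (SE 0.168), -0.09 for Tagln (SE 0.133), -0.13 for Myh11 (SE 0.155) and -0.35 for Cnn1 (SE 0.288). Without WT replicate 4 the differences were -0.22 for Acta2, -0.21 for Tagln, -0.27 for Myh11 and -0.56 for Cnn1, with edgeR adjusted p from 0.893 to 0.908. Without WT replicates 3 and 4 they were -0.27, -0.19, -0.28 and -0.50. With WT replicate 4 alone left out, Cnn1 was the one of the 4 with an unadjusted p under 0.05, at 0.043. Tagln shares 62.4% of its exon bases with an antisense gene, Gm48529, which is not among the counted genes. Tagln also shares 5.43% with Pcsk7 on the opposite strand, a gene at a mean of 24.4 CPM. Whether the counting used strand is not stated. Acta2 is similar to other actin genes, so its reads may be split among them.

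The 4 genes varied together between mice. Their coefficients of variation over the 9 mice were 17.4% to 30.8%, against a median of 9.29% for the endothelial, 9.005% for the pericyte and 8.69% for all genes. For Acta2 and Myh11 Pearson's r of log2 CPM was 0.972 (exact permutation p = 0.000165, Benjamini-Hochberg adjusted p = 0.000992 over 6 pairs, n = 9), Spearman's rho was 0.867 (exact permutation p = 0.00451, adjusted p = 0.00902), and r was 0.928 without WT replicates 2 and 4. Over all 6 pairs r ran from 0.829 to 0.972 with exact permutation p from 0.000165 to 0.00495 and adjusted p from 0.000992 to 0.00495. The Spearman coefficient ran from 0.617 to 0.883 with exact permutation p from 0.00308 to 0.0857 and adjusted p from 0.00902 to 0.0857, and that of Acta2 with Cnn1 was the one pair over 0.05. Without the 2 mice farthest from the median of the first gene, r was 0.531 to 0.593 for the 4 pairs other than Acta2 with Myh11 and Tagln with Myh11 at 0.724, so these relations rest largely on those mice, which were WT replicates 2 and 4 or, for Myh11 with Cnn1, Neat1-/- replicate 1 and WT replicate 4. Within the 4 Neat1-/- or the 5 WT mice the groups are too small for a correlation.

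The median log2 CPM of the 4 genes, relative to their mean over 9 mice, was -0.57 in WT replicate 4, -0.38 in Neat1-/- replicate 1 and 0.48 in WT replicate 2. The 23 endothelial genes moved less: -0.23 in WT replicate 4 and -0.04 to 0.07 in the other 8 mice. Pericyte genes ran from -0.08 to 0.17. Meningeal fibroblast markers were also lowest in WT replicate 4, but were at 0.01 in Neat1-/- replicate 1, where the smooth muscle genes were low. The part of meningeal content in the smooth muscle values was not tested.

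**Figure D3:**
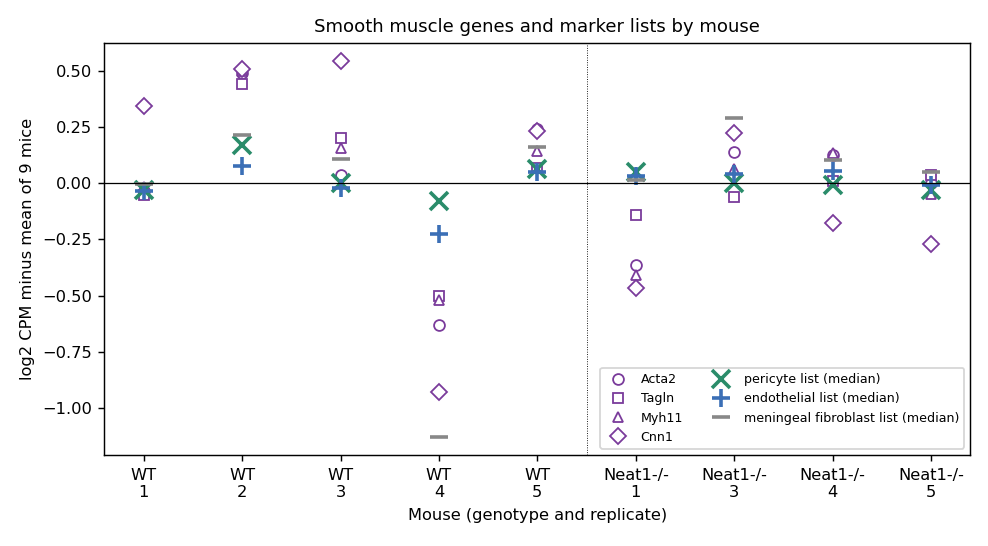
For each mouse (horizontal axis) the open symbols give log2 CPM of Acta2, Tagln, Myh11 and Cnn1 minus the mean of the 9 mice (vertical axis), and the crosses and dashes give the median of the pericyte, endothelial and meningeal fibroblast lists on the same scale. All 4 genes are lowest in WT replicate 4, where the meningeal median is at -1.13, and Acta2, Tagln and Myh11 are highest in WT replicate 2, while Cnn1 is highest in WT replicate 3.

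The Acta2 promoter is shown because these 4 genes varied together and contractile genes as a class are known for CArG boxes, the binding sequence of serum response factor. The window is chr19:34255374-34255623 on the minus strand (RefSeq, GRCm38.p6), the 250 bases before the start, and capitals mark matches to the CArG box on either strand with at most 1 core base other than A or T.
Acta2: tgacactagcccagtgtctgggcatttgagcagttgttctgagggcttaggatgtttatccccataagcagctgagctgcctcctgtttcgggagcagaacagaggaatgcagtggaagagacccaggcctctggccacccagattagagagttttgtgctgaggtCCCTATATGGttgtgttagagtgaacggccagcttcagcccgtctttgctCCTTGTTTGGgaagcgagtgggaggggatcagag
The Acta2 window held 2 matches. A match was found in 8.59% of all 32851 windows and in 6 of the 30 windows of vascular marker genes. Besides Acta2, those were windows of the endothelial genes Egfl7, Eng, Kdr, Ocln and Slco1a4, and Cnn1's window held none. Tagln and Myh11 had no entry in the table.

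Age was a covariate of the study, and 3 of the 35 genes had a negative age slope at an unadjusted p under 0.05 (8.57%), against 3.12% of all genes. None had a positive one, against 2.86%, and no gene of the 19753 passed the adjusted threshold in edgeR's test, where 5.98% had an unadjusted p under 0.05 in either direction. All 3 were transporters: Mfsd2a, Slc2a1 and Slco1a4. Negative slopes at that threshold were found also for 20% of the 20 other barrier transporters, 25% of the 16 basement membrane genes, 25% of the 20 meningeal fibroblast markers and 27.3% of the 11 astrocyte markers. Mfsd2a, which carries lysophosphatidylcholine with omega-3 fatty acids into brain, was at 19.4 and 21.1 CPM in the 2-month WT mice, 15.4 CPM in the 3-month and 15.3 and 17.3 CPM in the 4-month WT mice. In Neat1-/- mice it was at 20.4 CPM at 2 months, 18.4 CPM in both mice at 3 months and 16.7 CPM at 4 months. The youngest mice were the highest within both genotypes. The slope was -0.15 log2 units per month (SE 0.039, unadjusted p = 0.00178).

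For Slc2a1 the slope was -0.13 log2 units per month (SE 0.0369, unadjusted p = 0.0042). Its 2-month mice were at 64.3 and 71.9 CPM in WT and 70.6 CPM in Neat1-/-, above the 54.0 to 60.0 CPM of all 6 older mice. Slco1a4 had a slope of -0.07 (SE 0.0264, unadjusted p = 0.024), and its highest mouse was a Neat1-/- mouse of 3 months at 80.3 CPM. Mfsd2a and Slc2a1 kept an unadjusted p under 0.05 in all 13 alternatives with an age slope and Slco1a4 in 10, the largest p being 0.138 without WT replicate 4. In the main fit the edgeR adjusted p of the slope was 0.820 for all 3. Over these alternatives their adjusted p ran from 0.0936 to 0.9995. The 2-, 3- and 4-month mice numbered 3, 3 and 3, and batches of collection are not given in the labels.

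**Figure D4:**
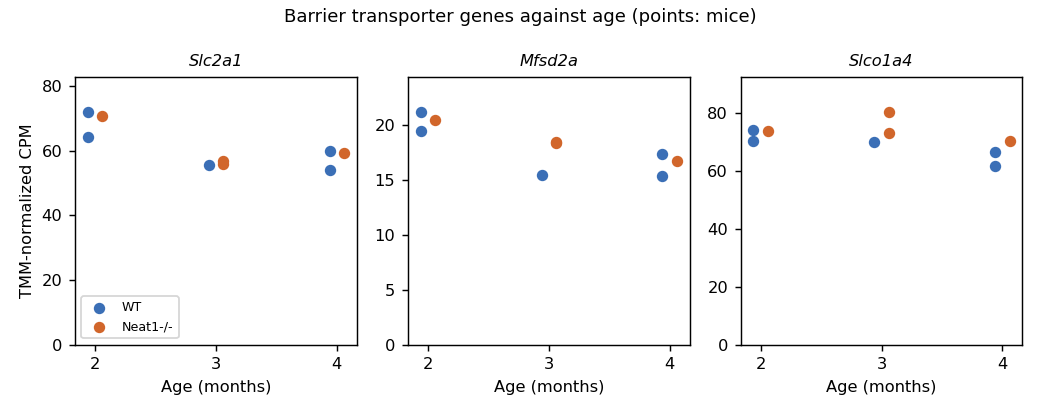
TMM-normalized CPM (vertical axes from 0) of Slc2a1, Mfsd2a and Slco1a4 against age in months (horizontal axes) in WT and Neat1-/- mice (points). The 2-month mice lie above all older mice for Slc2a1 and Mfsd2a, while the Slco1a4 values of the ages overlap.

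The wider vascular programme was covered by 191 further genes in lists of growth factors and receptors, Notch and Wnt genes, junctions and vesicles, barrier transporters, transcription factors, other endothelial and mural genes and basement membrane. Of these, 190 passed the filter. With Neat1-/- above WT there were 6 genes at an unadjusted p under 0.05 (3.16%), and with Neat1-/- below WT there were 5 (2.63%), against 4.27% and 4.03% of all genes. This depended on the mice: without WT replicate 4 the counts were 3 and 13, where all genes gave 2.4% and 3.1%, and without WT replicates 3 and 4 they were 2 and 16, where all genes gave 3.81% and 3.48%. The median log2 fold change was 0.01. In this set 2 genes lay above WT and 3 below it with no overlap of the mice, against 1.66% and 1.01% of all genes. One gene passed the adjusted threshold: Slc3a2, the heavy chain of the large neutral amino acid transporter, at 77.7 ± 4.95 CPM in WT (SD, n = 5) and 101 ± 1.30 CPM in Neat1-/- mice (SD, n = 4), with a log2 fold change of 0.38 (SE 0.0422, edgeR adjusted p = 0.0019). Slc3a2 is not specific to vessels and lies on chromosome 19, as Neat1 does.

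Apln, the peptide ligand apelin, acts on angiogenic endothelium through its receptor Aplnr. It was at 40.4, 35.3, 35.03, 44.1 and 35.6 CPM in WT and at 31.2, 29.6, 29.8 and 27.4 CPM in Neat1-/- mice. Every WT mouse lay above every Neat1-/- mouse. The highest Apln value was in WT replicate 4, the mouse with the lowest summed endothelial level, 133 CPM per kb. Aplnr was near the floor, with 11 to 30 counts per library. Which cells the Apln reads came from was not tested. The log2 fold change was -0.37 (SE 0.0679, edgeR adjusted p = 0.0962, exact permutation p = 0.00794, the smallest the design allows). Across the 20 alternatives its adjusted p ran from 0.000177 to 0.366 and was under 0.05 in 4.

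Klf2, a transcription factor induced by shear stress, was at 8.001, 13.3, 10.1, 8.65 and 7.29 CPM in WT and at 5.63, 4.77, 6.00 and 8.58 CPM in Neat1-/- mice. Neat1-/- replicate 5 alone of its genotype lay inside the WT range. The log2 fold change was -0.60 (SE 0.156, edgeR adjusted p = 0.397, from 0.0107 to 0.893 over the alternatives and under 0.05 in 2). Klf2 is also expressed outside the endothelium, and its age slope was -0.23 log2 units per month (SE 0.0925).

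Mcam, an adhesion molecule of mural and endothelial cells also called CD146, was at 17.8, 15.9, 19.4, 16.7 and 16.7 CPM in WT and at 15.1, 13.8, 14.1 and 14.3 CPM in Neat1-/- mice. The genotypes did not overlap (log2 fold change -0.27, SE 0.0643, edgeR adjusted p = 0.326, exact permutation p = 0.0159). Flt4, the receptor for VEGF-C, was at 3.34 to 4.86 CPM in WT and 3.08 to 3.29 CPM in Neat1-/- mice, again without overlap (log2 fold change -0.28, SE 0.122, edgeR adjusted p = 0.591). In the opposite direction, Vegfb, a ligand of Flt1, was at 21.5 to 24.8 CPM in WT and 25.5 to 27.5 CPM in Neat1-/- mice (log2 difference 0.15, SE 0.0518, edgeR adjusted p = 0.543). It lies on chromosome 19 too. Over the alternatives the adjusted p of Mcam ran from 0.0462 to 0.880, of Flt4 from 0.0290 to 0.893 and of Vegfb from 0.176 to 0.893.

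**Figure D5:**
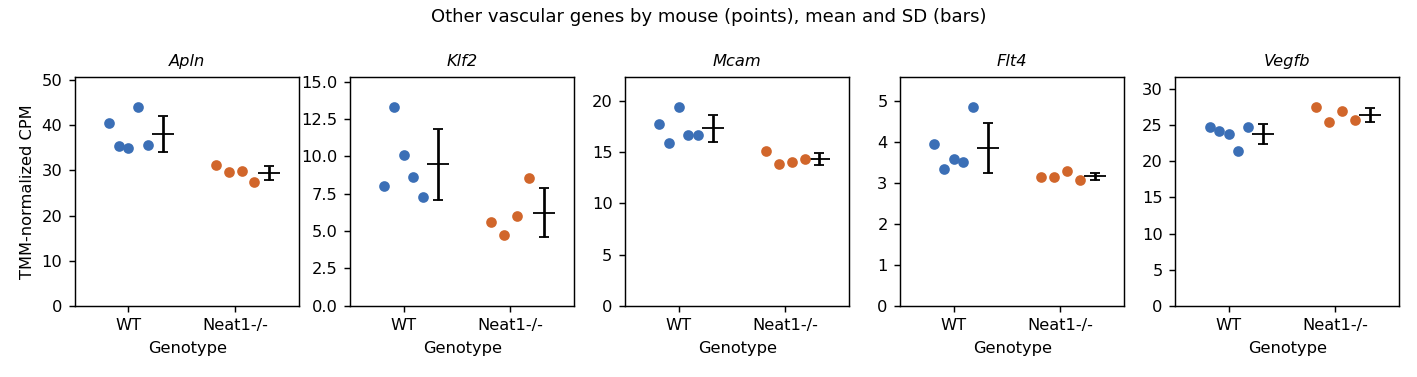
TMM-normalized CPM (vertical axes from 0) of Apln, Klf2, Mcam, Flt4 and Vegfb in each WT and Neat1-/- mouse (points), with mean and SD as bars. The genotypes do not overlap for Apln, Mcam, Flt4 and Vegfb, and 1 Neat1-/- mouse at 8.58 CPM lies inside the WT range for Klf2.

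The other genes of these lists with an unadjusted p under 0.05 had smaller differences. Barrier transporters gave 3 of 20 higher (15%), against 4.27% of all genes. The 3 were Slc3a2, Car4, the membrane carbonic anhydrase of capillaries, at 0.16 (SE 0.0539), and the efflux pump Abcg2 at 0.13 (SE 0.0511). Cav2, a caveolar protein, was at 0.11 (SE 0.0431). Of the basement membrane genes, the collagen chain Col4a2 was at -0.10 (SE 0.04) and Sparcl1, a matrix protein that astrocytes express strongly as well, was at 0.07 (SE 0.0267). Their edgeR adjusted p-values were 0.543 to 0.58. None of the 30 other endothelial genes and 19 Notch and Wnt genes had an unadjusted p under 0.05, against 8.3% of all genes.

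Markers of other cells in the same tissue were read beside these values. Below WT at an unadjusted p under 0.05 lay 4 of 9 oligodendrocyte (44.4%) and 1 of 9 neuronal markers (11.1%), against 4.03% of all genes. Above it lay 3 of 13 microglia and macrophage markers (23.1%) and 1 of 11 astrocyte markers (9.09%), against 4.27% of all genes. None of these passed the adjusted threshold. The 3 were C1qa, C1qb and C1qc, which lie close together on chromosome 4, at log2 fold changes of 0.17, 0.12 and 0.15. Cx3cr1, P2ry12, Tmem119 and Csf1r of the same list were at -0.01, 0.04, -0.01 and 0.01. Of the 13, 10 were positive and 3 negative. Meningeal fibroblast markers gave 2 of 20 higher (10%), choroid plexus and ependymal markers 3 of 14 lower (21.4%) and erythrocyte markers 0 of 5. The meningeal genes were Slc47a1 and Mgp, both lowest in WT replicate 4, at 1.32 and 7.18 CPM. Of the choroid plexus genes, F5 and Otx2 were highest in WT replicate 3, at 1.875 and 0.746 CPM. Sostdc1 was highest in WT replicate 4, at 0.499 CPM. The meningeal and choroid plexus counts were not repeated without these mice. With 5 to 20 genes per list, a single call is a large share. The summed erythrocyte level was 8.92 to 23.9 CPM per kb in WT and 3.88 to 16.9 CPM per kb in Neat1-/- mice. The summed endothelial level was 133 CPM per kb in WT replicate 4, 148 to 161 in the other WT mice and 153 to 160 in Neat1-/- mice. The pericyte sum was 66.0 to 83.7 CPM per kb in WT and 73.8 to 77.4 in Neat1-/- mice. The part of these other cells in the vascular differences was not tested.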

How the data were processed

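Libraries were made by the authors from total RNA after Ribo-Zero depletion, 1 per mouse. The authors deposited a table of raw counts for 43629 Ensembl genes in 9 libraries and normalized log2 values for 13456 genes, which hold 33 of the 35 vascular genes (not Ndufa4l2 and Cnn1) and from which covariates had been removed. The submitters' notes name mm10, STAR 2.5.0, HTSeq 0.8.0 and limma, while the supplementary methods name TopHat, Bowtie and HTSeq. Whether counting used strand is not given in the sources used here. Names and GRCm38 positions came from GENCODE vM21 (42548 IDs named).

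Counts were filtered by filterByExpr on genotype (19753 genes kept) and tested in edgeR 4.0.16 (R 4.3.3; glmQLFit, glmQLFTest) on TMM-scaled libraries, with genotype and a linear term for age in months, and Benjamini-Hochberg adjustment over all genes. SE is the size of the log2 fold change divided by the square root of F. The common biological coefficient of variation (BCV) of this fit came to 0.0922. Levels between genes were compared only per kb of merged exons. The CPM of single genes were also compared by an exact permutation test (two-sided, 126 splits). The edgeR p-values set a difference against the spread between these mice, with age in the fit. The exact permutation test has no age term, and the correlation tests pool both genotypes without one.

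Alternatives were DESeq2 1.42.0, limma 3.58.1 (voomWithQualityWeights, and limma on the deposited log2 values), other size factors, filters and age terms, a replicate block and each library left out. The edgeR fit alone was tested on simulated counts, with known genotype differences and no age effect. Correlations and figures used Python 3.11.15, SciPy 1.17.1 and Matplotlib 3.10.9. Genes named in full are those at an unadjusted p under 0.05, the 2 with the highest level per kb in each role, and up to 3 per further list with the smallest p under 0.05. The members and lists were chosen with earlier results of these data known.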

Additional observations from a re-analysis of the deposited data

Results flagged for a closer look

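Of 100 groups of values, most for single genes and a few for marker lists, tested for a sample far from the others, 1 stood out. Chance alone flags about 1 in 20. The meningeal fibroblast sum, low in WT replicate 4, was among the groups tested and was not flagged. Abcg2, the efflux pump of the barrier, was at 25.7 CPM in Neat1-/- replicate 4 and at 30.2 to 30.9 CPM in the other 3 Neat1-/- mice. The gap was 0.861 of the range of the 4 mice. The WT mice were at 23.8 to 30.1 CPM.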

How the results depend on the processing

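In every alternative, DESeq2 and limma included, 0 of the 35 vascular marker genes passed the adjusted threshold. The count of these genes at an unadjusted p under 0.05 that were higher was 5 (where 4.27% of all genes were). With a replicate block it was 6 (Rgs5 added, 4.02% of all genes). It was 3 with the deposited log2 values, which hold 33 of the 35 genes and where 9.94% of all genes were higher. Without WT replicates 3 and 4 (an alternative chosen after seeing the data) it was 3 (3.81%). The count that were lower was 0 (4.03% of all genes). It was 1 with limma voom (4.39%), library size alone (4.79%), no filter (4.21%) or a 1 CPM filter (4.47%). The lower count was 2 with the deposited values (7.57%) or without WT replicates 3 and 4 (3.48%). With single mice left out, the higher count was 4 to 6, where all genes gave 2.39% to 6.13%. The lower count was then 0 to 3, where all genes gave 2.68% to 8.58%. The 3 were Flt1, Tek and Cnn1 without WT replicate 4 (3.1%). For the other vascular genes the higher count of 6 was 12 with no filter (3.35% of all genes in that setting), 2 without WT replicates 3 and 4 (3.81%), and 3 without WT replicate 4 (2.4%) to 14 without WT replicate 5 (6.13%). Their lower count of 5 was 8 with limma voom (4.39%), 10 with library size alone (4.79%), 9 with the 1 CPM filter (4.47%), 19 with the deposited values (7.57%), 16 without WT replicates 3 and 4 (3.48%), and 4 without Neat1-/- replicate 1 (3.11%) to 13 without WT replicate 4 (3.1%). The age counts were 2 to 5 lower and 0 to 2 higher with single mice left out, and 5 lower with no filter. The cause was not tested in these cases.

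With single mice left out, r was 0.652 to 0.890 for Acta2 with Cnn1, 0.649 to 0.883 for Tagln with Cnn1, 0.749 to 0.900 for Myh11 with Cnn1, 0.781 to 0.927 for Acta2 with Tagln, 0.865 to 0.962 for Tagln with Myh11 and 0.961 to 0.983 for Acta2 with Myh11. The lowest of the first and second pairs came without WT replicate 4 and no longer passed the adjusted threshold.

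Genes near 0 changed sign. Cldn5 was at -0.000926 with DESeq2, -0.000614 with RLE factors, -0.00917 with library size alone, -0.00975 with the 1 CPM filter, -0.0737 with age as a factor, -0.0586 with the deposited values and -0.033 without WT replicates 3 and 4. In the last 2 settings Ly6c1 was at -0.0628 and -0.075, Erg at -0.0194 and -0.0298, and Vtn at -0.103 and -0.112. Slc2a1 was at 0.0404 with age as a factor. With single mice left out, Cldn5 ran from -0.0871 to 0.0757, Tek from -0.12 to 0.0124, Ly6c1 from -0.0259 to 0.0695, Slc2a1 from -0.0612 to 0.01995, Vtn from -0.0632 to 0.0905, Rgs5 from -0.0316 to 0.114 and Acta2 from -0.222 to 0.0476. The endothelial median ran from -0.0259 to 0.0695, the pericyte median from -0.0427 to 0.0466 and the smooth muscle median from -0.245 to -0.0138.

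Same-numbered mice correlated at 0.044, -0.0447, 0.137 and -0.0773 for replicates 1, 3, 4 and 5 in their deviations from the genotype means. Only for replicate 4 was this above the values of its WT mouse with the other Neat1-/- mice, -0.0871 to 0.00382. These 4 values are too few and too mixed to decide whether the replicate numbers pair the mice. With a replicate block, 12 other vascular genes were higher (where 4.02% of all genes were), 6 vascular marker genes were higher, Slc2a1 was at 0.0146, Acta2 at 0.0776 and Tagln at 0.029.

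Depth limits Cnn1, with 19 to 57 counts per library, most among the 35 genes, and 5 against 4 mice limit all single-gene tests. The median log2 fold change of all genes was -0.000231, -0.00197 with RLE factors and -0.0108 with library size alone.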
